A study of Mus musculus with 6 samples.

Results

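Selenbp1 and the genes of sulfide detoxification were followed across 6 colon RNA-seq libraries, 3 from mice given dextran sulfate sodium (DSS) and 3 from mice given DSS with the gut bacterium *B. vulgatus* (DSS+BV). The members were chosen by gene symbol: Selenbp1, Selenbp2, Sqor, Ethe1, Tst, Suox, Mpst, Cbs and Cth. All 9 were found among the 18477 genes of the deposited table, and all 9 passed the filter on low counts, which left 14579 tested genes. They were picked with the results of this comparison already known. Their levels and differences are therefore a description. No member is given a p-value, and the members past a threshold are counted only beside the share of all genes past it.

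Both groups were male C57BL/6 mice, 6 to 8 weeks old, with no genetic change named. They drank distilled water and then 2% DSS, which damages the epithelial lining and brings on colitis, for the last 7 of 14 days. During the 14 days the DSS group received PBS by daily gavage and the DSS+BV group received *B. vulgatus*, an ATCC strain, in PBS. Each library came from the colon of 1 mouse, mice without DSS were not analysed here, and p-values measure the spread between these mice. The comparison asks which genes differ in the inflamed colon when the bacterium is given.

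Hydrogen sulfide reaches the colon epithelium from sulfate-reducing and cysteine-degrading gut bacteria, and it blocks mitochondrial respiration at high levels. Colonocytes remove it in mitochondria. Sqor, sulfide:quinone oxidoreductase, oxidises sulfide and passes the electrons to ubiquinone, Ethe1 oxidises the persulfide that results to sulfite, Tst (rhodanese) moves sulfur between sulfite, thiosulfate and cyanide, and Suox oxidises sulfite to sulfate. Selenbp1, abundant in mature colonocytes, is a methanethiol oxidase, which breaks down a volatile thiol of bacterial origin and releases sulfide. Cbs, Cth and Mpst are the host enzymes that make sulfide from cysteine and homocysteine.

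Levels are given as CPM, expected counts put on a common library size with TMM factors. Library totals lay between 15293276 and 17254343 expected counts. Over all tested genes, clustering put DSS 2 with DSS+BV 2 and DSS+BV 3, and DSS+BV 1 with DSS 1 and DSS 3, so 1 library of each group stood with the other group. All 8 epithelial markers were measured in every library, Epcam and Vil1 among them. Their summed level was between 9184 and 9905 CPM in the DSS group and between 11370 and 15020 CPM in the DSS+BV group. In whole tissue, more cells of a type and more RNA per cell cannot be told apart.

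Selenbp1 and Selenbp2 are near-identical copies that lie on the same strand of chromosome 3. In the GRCm38 build, Selenbp1 (Entrez gene 20341) spans chr3:94933056-94944758 and Selenbp2 (Entrez gene 20342) spans chr3:94693556-94704413, with 228642 bases between them. Each has 12 exons and a coding length of 1419 bases, stop codon included. Before the stop codon, 18 of the 1416 coding bases differ, which leaves 98.7% identity and an identical run of 193 bases. Such runs matter here because a read that falls inside one cannot be given to either gene by its sequence. The stretch of 120 bases within 1 exon that holds the most differences, with 4, is shown from coding base 361 to 480 in exon 5 (chr3:94937955-94938074 for Selenbp1 and chr3:94698043-94698162 for Selenbp2, GENCODE transcripts, plus strand), with the bases that differ in capitals.
Selenbp1: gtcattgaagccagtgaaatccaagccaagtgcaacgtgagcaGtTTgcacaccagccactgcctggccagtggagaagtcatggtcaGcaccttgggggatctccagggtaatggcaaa
Selenbp2: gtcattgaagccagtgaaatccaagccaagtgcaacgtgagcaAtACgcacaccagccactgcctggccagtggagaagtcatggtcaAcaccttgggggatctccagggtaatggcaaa

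The likeness extends upstream of both genes, as the 250 bases before each RefSeq start show. A bearing of these bases on the levels in the data was not tested. The RefSeq windows on GRCm38.p6, chr3:94932833-94933082 for Selenbp1 and chr3:94693323-94693572 for Selenbp2 on the plus strand, were aligned with free ends. The RefSeq starts lie downstream of the GENCODE starts given above, so each window ends inside the gene as GENCODE annotates it. Of 250 aligned columns, 223 were identical (89.2%) and 12 held a gap. Capitals mark bases that differ or have no partner in the other window.
Selenbp1: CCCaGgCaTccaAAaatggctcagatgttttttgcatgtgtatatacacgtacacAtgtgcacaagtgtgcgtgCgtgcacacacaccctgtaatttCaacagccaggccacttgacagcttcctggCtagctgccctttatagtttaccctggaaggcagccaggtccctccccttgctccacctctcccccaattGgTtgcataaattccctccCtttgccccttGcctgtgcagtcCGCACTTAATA
Selenbp2: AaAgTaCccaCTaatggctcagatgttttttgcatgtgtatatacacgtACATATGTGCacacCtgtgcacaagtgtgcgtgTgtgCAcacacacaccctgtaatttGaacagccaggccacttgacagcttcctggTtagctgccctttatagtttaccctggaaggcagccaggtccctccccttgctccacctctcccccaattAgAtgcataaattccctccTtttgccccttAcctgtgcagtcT
The TATA box letters TATAAA, searched on both strands, occurred once in each window, on the minus strand, and in 12.4% of the 32851 RefSeq windows of this length.

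Selenbp1, the methanethiol oxidase, was higher in the mice given the bacterium. The DSS libraries, in the order of mouse 1 to 3, held 280.3, 444 and 317 CPM, and the DSS+BV libraries held 764, 972 and 879 CPM. Every DSS+BV mouse was above every DSS mouse, with a gap wider than the spread within either group. The means were 347 ± 85.8 CPM (SD, n = 3) and 872 ± 104 CPM (SD, n = 3), a ratio of 2.51 and a log2 fold change of 1.33 (standard error 0.22). With 1 library left out the log2 fold change lay between 1.199, without DSS 1, and 1.56, without DSS 2.

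Selenbp2, its copy, was at 25.4, 45.3 and 39.7 CPM in the DSS libraries. In the DSS+BV libraries it was at 93.2, 114 and 86.1 CPM, again without overlap. Its log2 fold change was 1.41 (standard error 0.24), close to that of Selenbp1.

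The values of these 2 genes are not separate measurements. Both had fractional expected counts in all 6 libraries, while the other 7 members had whole numbers in every library, within a tolerance of 1e-09. In each library the counts of the pair summed to a whole number within the same tolerance, from 5105 in DSS 1 to 17042 in DSS+BV 2, so RSEM divided reads between these 2 genes. Selenbp2 received between 8.31% (exact 95% interval 7.56 to 9.10%, counting error only) and 11.1% of the pair's counts in the DSS group. Such an interval treats each expected count as a read known to belong to 1 gene. The uncertainty of the division by RSEM is not in it, so it is too narrow. In the DSS+BV group it received between 8.91% and 10.9%. The group means were 9.57% ± 1.44 and 10.1% ± 1.04 (SD, n = 3 each), and the groups overlapped. With the pair summed into 1 feature the log2 fold change was 1.34.

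Sqor, the first enzyme of sulfide oxidation, read 530.3, 459 and 584 CPM in the DSS mice. The DSS+BV mice read 488, 692 and 568 CPM. The groups overlapped, and DSS+BV 1 was below DSS 1 and DSS 3. The log2 fold change was 0.15 (standard error 0.19), and its 95% interval ran from -0.29 to 0.60, so a 2-fold difference in either direction lies outside it. With 1 library left out the log2 fold change lay between 0.02, without DSS+BV 2, and 0.28, without DSS+BV 1.

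**Figure D1:**
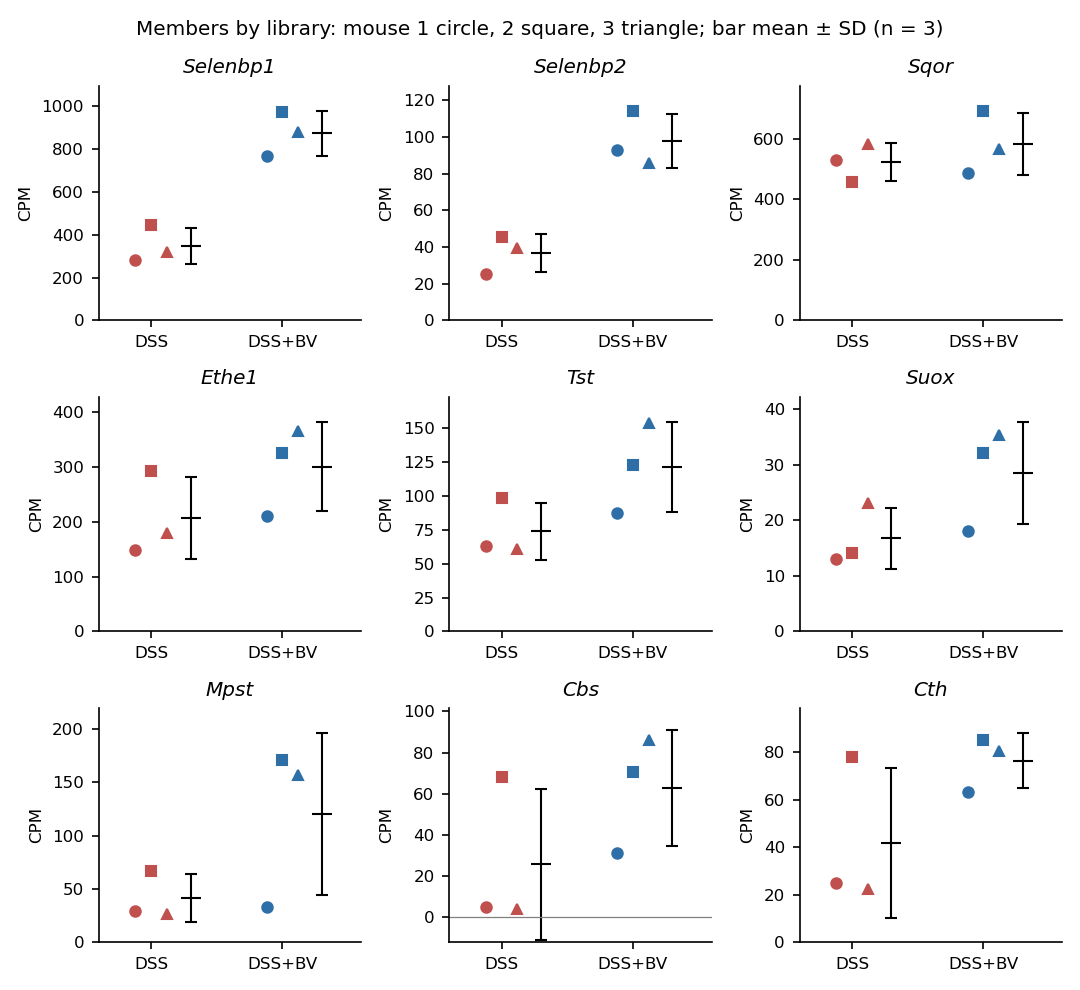
Level of each of the 9 members in CPM (vertical axes) in the DSS group (red) and the DSS+BV group (blue), 1 point per mouse, with the mean and SD of each group in black (n = 3). The groups are separate for Selenbp1 (up to 444 against at least 764 CPM) and Selenbp2 and overlap for the other 7 genes.

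Selenbp1 and Sqor changed places as the most abundant member when levels were set per length of transcript. The ratio of Selenbp1 to Sqor in CPM per kilobase was 0.557, 1.02 and 0.572 for the DSS mice. For the DSS+BV mice it was 1.65, 1.48 and 1.63. The ratio was chosen after the values were seen. It did not overlap between the groups and varied little among the DSS+BV mice, at 1.59 ± 0.0932 (SD, n = 3) against 0.716 ± 0.262 (SD, n = 3) in the DSS group.

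Below these 2 genes the order per length was Ethe1, Tst and then the other 5 members in both groups. In the DSS group, Sqor (291 CPM per kilobase) and Selenbp1 (203) overlapped in their libraries, as did Selenbp1 and Ethe1 (140). Tst, at 64.7, was apart from Ethe1 above it and from Mpst below it. The last 5, from Mpst at 23.6 to Suox at 6.70 CPM per kilobase, overlapped with their neighbours. In the DSS+BV group, Selenbp1 (509 CPM per kilobase) was apart from Sqor (323), Sqor from Ethe1 (203), and Ethe1 from Tst (106). Suox had the lowest mean level per length in both groups, at 6.70 and 11.4 CPM per kilobase.

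**Figure D2:**
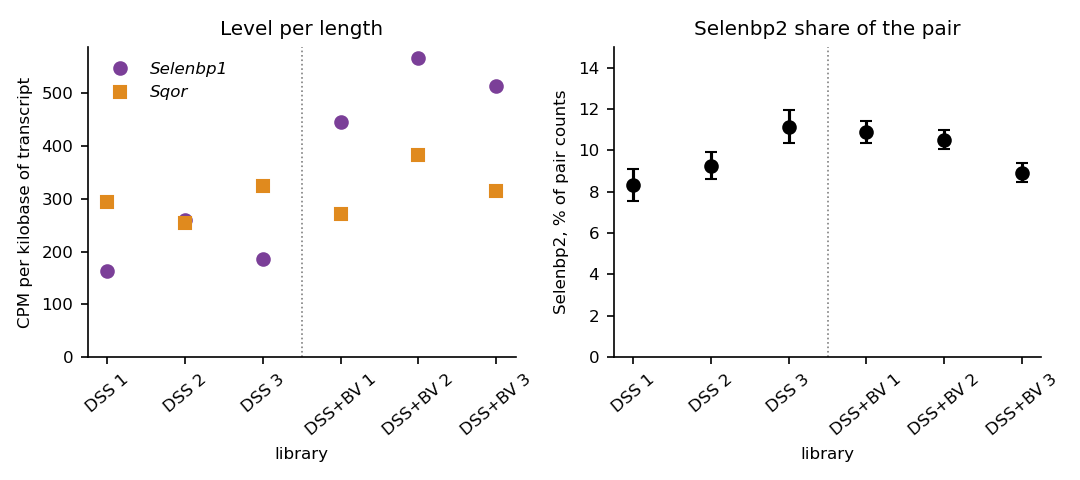
Left, CPM per kilobase of transcript (vertical axis) of Selenbp1 (circles) and Sqor (squares) in each library (horizontal axis). Selenbp1 is above Sqor in all 3 DSS+BV libraries and below it in DSS 1 and DSS 3. Right, the share of Selenbp2 in the summed expected counts of Selenbp1 and Selenbp2, in percent, which stays between 8.31% and 11.1%. The exact 95% intervals are for counting error only and leave out the uncertainty of the division of reads.

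In CPM, the enzymes downstream of Sqor were higher on average in the DSS+BV group, with groups that overlapped, though not relative to the surface colonocyte markers (given further on). Ethe1, the persulfide dioxygenase, held 149, 292 and 180.2 CPM in the DSS mice against 209.9, 327 and 366 CPM in the DSS+BV mice, with a log2 fold change of 0.54 (standard error 0.32), which was 0.35 without DSS 1 and 0.88 without DSS 2. DSS 2 was above DSS+BV 1 and the other 2 DSS mice were below all DSS+BV mice. Tst, or rhodanese, held 62.8, 98.3 and 61.0 CPM against 87.4, 123 and 154 CPM, a log2 fold change of 0.71 (standard error 0.27). Its libraries stood in the same positions as those of Ethe1 with regard to overlap. Suox, the sulfite oxidase, held 13.0, 14.1 and 23.1 CPM against 18.1, 32.05 and 35.3 CPM, a log2 fold change of 0.77 (standard error 0.33). Here DSS 3, not DSS 2, was the high library of the DSS group.

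The 3 enzymes that make sulfide had the largest standard errors of the 9 members. Mpst, which takes sulfur from 3-mercaptopyruvate, read 29.8, 67.4 and 27.0 CPM in the DSS mice. The DSS+BV mice read 33.2, 171 and 157 CPM, and DSS+BV 1 lay near DSS 1 and DSS 3. The log2 fold change was 1.54 (standard error 0.65), the largest of the 9 and with a wide error. Mpst starts 867 bases from Tst, its relative in the rhodanese family, and the 2 genes point away from each other on chromosome 15 (Mpst at chr15:78406775-78414013, plus strand, and Tst at chr15:78399556-78405907, minus strand). Their ratio in CPM per kilobase was not constant, between 0.248 in DSS+BV 1 and 0.908 in DSS+BV 2.

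Cbs, cystathionine beta-synthase, read 4.91, 68.1 and 3.84 CPM in the DSS mice. Among the DSS+BV mice it read 31.4, 70.6 and 85.9 CPM. The level of DSS 2 was within the range of the DSS+BV mice, and the DSS mean of 25.6 ± 36.8 CPM (SD, n = 3) describes none of its mice. The log2 fold change was 1.29 (standard error 1.09) with all libraries, 3.85 without DSS 2 and 0.78 without DSS 3. DSS 1 and DSS 3 held 82 and 66 expected counts of Cbs, against 1096 in DSS 2.

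Cth, cystathionine gamma-lyase, acts after Cbs in transsulfuration and had the same 4 libraries at the low end, in the same order, with DSS+BV 2 and DSS+BV 3 exchanged at the top. The DSS mice held 25.1, 78.1 and 22.4 CPM and the DSS+BV mice held 63.3, 85.4 and 80.7 CPM. DSS 2 was again above DSS+BV 1. The log2 fold change was 0.87 (standard error 0.49), 1.70 without DSS 2 and 0.57 without DSS 3.

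**Figure D3:**
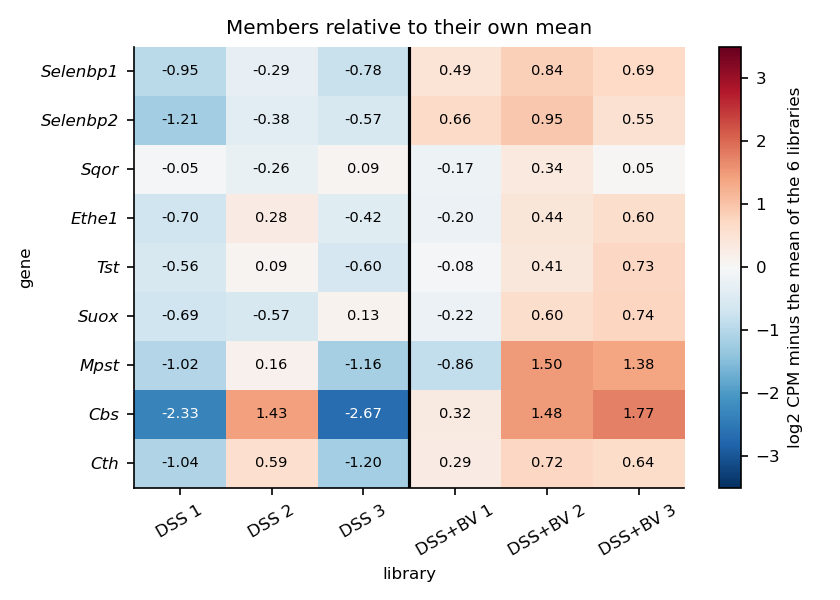
Log2 CPM of each member (rows) minus its mean over the 6 libraries (columns), from blue (low) to red (high). Selenbp1 and Selenbp2 are below their mean in all DSS libraries and above it in all DSS+BV libraries, while Cbs reads -2.33 and -2.67 in DSS 1 and DSS 3 and 1.43 in DSS 2.

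The order of the libraries thus differed between members. Selenbp1 and Selenbp2 were separated by treatment in every mouse, Ethe1, Tst, Mpst, Cbs and Cth had DSS 2 above DSS+BV 1, and Sqor and Suox overlapped in other libraries. DSS 2 was the highest library of its group for 7 members, and DSS+BV 1 was the lowest of its group for 8. Over the 6 libraries, which share 2 groups, the Pearson correlation of log2 CPM was 0.99 between Cbs and Cth, 0.96 between Ethe1 and Tst and 0.98 between Selenbp1 and Selenbp2. It was 0.02 between Sqor and Cbs and 0.35 between Sqor and Selenbp1.

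All 9 members had a log2 fold change above 0, with a median of 0.87 against -0.01 for all tested genes, but relative to marker sums Sqor and up to 3 other members were lower in the DSS+BV group, as given further on. In edgeR's quasi-likelihood test, with calls at an adjusted p below 0.05 and a change of more than 1 on the log2 scale, 0 of the 9 were called in either direction, beside 0% of all tested genes in the higher direction and 0.0892% in the lower. At an unadjusted p under 0.05, 3 members were higher (Selenbp1, Selenbp2 and Tst), where 3.40% of all tested genes were higher and 9.12% lower. With DESeq2 and the same thresholds, 2 members were called higher, Selenbp1 and Selenbp2, where 0.279% of genes were and 1.73% were called lower. For 2 members every DSS+BV library was above every DSS library, which held for 6.37% of all tested genes. These 2 counts are in effect 1 observation, since the 2 genes share reads, and nothing is read from them since the members were chosen on this comparison.

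The counts depended on DSS 2 and on DSS+BV 1. Without DSS 2 the groups were separate for 7 of the 9 members (all but Sqor and Suox), beside 17.3% of all tested genes. Without DSS+BV 1 they were separate for 8 (all but Sqor), beside 14.7%. Ethe1, Tst, Mpst, Cbs and Cth overlapped only because DSS 2 was above DSS+BV 1, so leaving out either library separates them by construction. These members also shared much of their library order, so they are not separate observations. Both libraries were singled out after the values were seen, and nothing is read from these counts. Without DSS 1 only Selenbp1 and Selenbp2 were separate, beside 2660 of the 14579 tested genes with every DSS+BV library higher. The same 2 members were separate without DSS+BV 2 (1116 genes) and without DSS+BV 3 (1572 genes). Without DSS 3 there were 3 (1242 genes). No member was called by edgeR with any library left out.

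**Figure D4:**
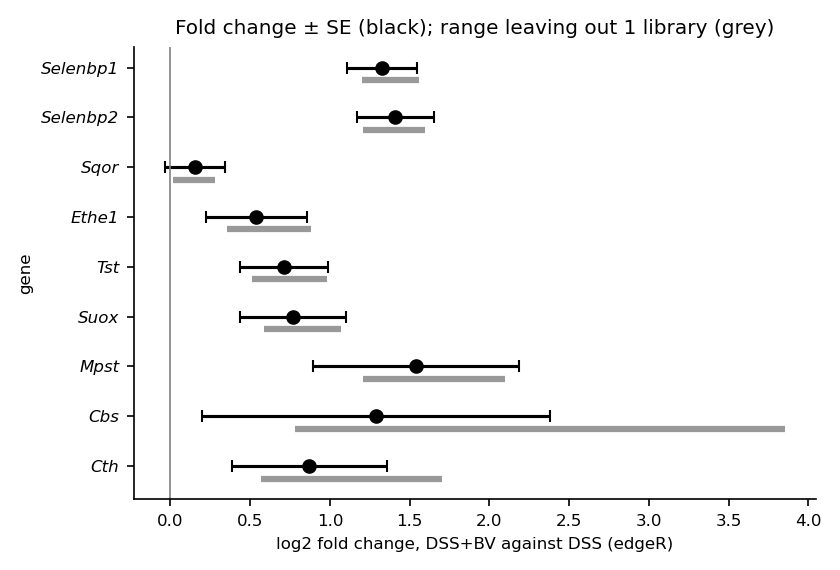
Log2 fold change of each member in the DSS+BV group against the DSS group (horizontal axis), with its standard error in black and, in grey, the range over the 6 fits that each leave out 1 library. The range of Cbs runs from 0.78 to 3.85, whereas that of Selenbp1 runs from 1.199 to 1.56.

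Of the marker sums of other cells, those of fibroblasts and endothelium were separate between the groups and the rest overlapped. The part of any markers in the member differences was not tested beyond the following values. All 8 epithelial markers had a log2 fold change above 0 and their sum did not overlap between the groups. The 6 fibroblast markers all had one below 0 and summed to between 3670 and 4039 CPM in the DSS group and between 1305 and 1923 CPM in the DSS+BV group. The 6 endothelial markers were also all below 0 and summed to between 243 and 326 CPM and between 167 and 229.7 CPM. Neutrophil markers, of which 8 of 8 were below 0 and 5 were called lower by edgeR, overlapped in their sum (203 to 1015 CPM and 29.5 to 324 CPM), as did macrophage markers (8 of 8 below 0, 499.8 to 1127 CPM and 306 to 687 CPM) and B and plasma cell markers (6 of 6 below 0, 552 to 1613 CPM and 245 to 1119 CPM). The sums also overlapped for goblet markers (3 of 7 above 0, 9240 to 21870 CPM and 16970 to 29370 CPM) and crypt base markers (5 of 6, 163 to 717 CPM and 378 to 464 CPM). The same held for smooth muscle (1 of 6, 3183 to 3915 CPM and 2297 to 3821 CPM), T cell (3 of 5, 27.4 to 52.4 CPM and 28.1 to 58.8 CPM) and distal colon markers (1 of 5, 58.8 to 336 CPM and 5.56 to 333 CPM). The distal colon sum was higher in DSS 1, DSS 3 and DSS+BV 1 (336, 185 and 333 CPM) than in DSS 2, DSS+BV 2 and DSS+BV 3 (58.8, 158 and 5.56 CPM), the same split as in the clustering and as the 3 low and 3 high libraries of Ethe1, Tst, Mpst, Cbs and Cth. No listed marker was at 0 in all libraries, and Olfm4 and Trac were not tested.

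Set against the epithelial markers, the means of 8 members were higher in the DSS+BV group, Selenbp1 and Selenbp2 had separate groups, and Sqor turned. Selenbp1 amounted to 3.05, 4.64 and 3.201% of their summed CPM for the DSS mice, against 5.68, 6.47 and 7.74% for the DSS+BV mice. Sqor amounted to 5.77, 4.80 and 5.89% for the DSS mice against 3.63, 4.61 and 4.999% for the DSS+BV mice, a lower mean (4.41 against 5.49%) with overlapping groups. Against the 10 surface colonocyte markers, among them Krt20, Aqp8 and Car4, the means of Sqor, Ethe1, Tst and Suox were lower in the DSS+BV group and those of the other 5 members higher. For Selenbp1 that percentage was 4.57, 3.96 and 2.76 for the DSS mice against 9.01, 4.42 and 4.08 for the DSS+BV mice. DSS 1 was then above DSS+BV 2 and DSS+BV 3, and no member had separate groups on this scale. The surface markers themselves (7 of 10 above 0) summed to 6130, 11210 and 11480 CPM for the DSS mice against 8483, 21980 and 21550 CPM for the DSS+BV mice.

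The neighbouring pathways were taken from 6 lists with 101 genes, of which 95 were tested. None of the 95 was called by edgeR in either direction, beside 0% of all tested genes higher and 0.0892% lower. At an unadjusted p under 0.05 in edgeR, 6 were higher and 6 lower, where 3.40% and 9.12% of all tested genes were. DESeq2 called 2 lower, both selenoproteins, where it called 1.73% of all genes lower. The median log2 fold change over the 95 was 0.17, against -0.01 for all tested genes. The groups were separate for 8 genes in the higher direction and 8 in the lower. Of all tested genes, 6.37% and 11.3% were.

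Sulfate, the end product of the pathway, is activated to PAPS before it can be put on mucins and xenobiotics. Of the 16 tested genes of sulfate activation and transport, 12 were above 0, with a median of 0.20. Papss2, a PAPS synthase, held 158, 335 and 149 CPM in the DSS mice against 283, 642 and 659.6 CPM in the DSS+BV mice. The log2 fold change was 1.30, with a standard error of 0.44 (edgeR adjusted p = 0.353). DSS 2 was above DSS+BV 1, as for Mpst. Papss1, the other PAPS synthase, had separate groups, at 71.6 ± 29.9 and 119 ± 4.71 CPM (SD, n = 3 each), with a log2 fold change of 0.74 (edgeR adjusted p = 0.378). The largest log2 fold change in this list was that of Slc13a1, a sulfate transporter named after its values were seen, at 0.718, 6.96 and 1.69 CPM against 2.18, 18.2 and 47.8 CPM, with overlapping groups (log2 fold change 2.86, standard error 1.199, edgeR adjusted p = 0.399).

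The ubiquinone that Sqor reduces is made by the Pdss and Coq genes, of which 10 of 13 were above 0 (median 0.23). Coq5, a methyltransferase of that synthesis, was at 34.1 ± 8.34 and 50.8 ± 6.96 CPM (SD, n = 3 each), and its log2 fold change was 0.58 (edgeR adjusted p = 0.378). Pdss2, a subunit of the enzyme that makes the ubiquinone tail, had a log2 fold change of 0.51 and overlapping groups (edgeR adjusted p = 0.409). In the list of persulfide and thiol redox genes, 14 of 16 were above 0, all within a narrow range (median 0.25). Its smallest p-values belonged to the thioredoxin-like Txndc17 (log2 fold change 0.27, edgeR adjusted p = 0.5197) and the peroxiredoxin Prdx1 (0.25, edgeR adjusted p = 0.545).

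Cysteine and methionine metabolism, which supplies Cbs, Cth and Mpst, did not move in 1 direction. Of the 16 genes of cysteine, taurine and glutathione metabolism, 12 were above 0 (median 0.21). Got1, an aspartate aminotransferase that also forms 3-mercaptopyruvate from cysteine, had separate groups, at 50.6 ± 5.996 and 74.2 ± 9.41 CPM (SD, n = 3 each; log2 fold change 0.55, edgeR adjusted p = 0.312). Slc7a11, the cystine transporter, had a log2 fold change of -1.04 with overlapping groups (edgeR adjusted p = 0.387). In the methionine cycle, 5 of 11 tested genes were above 0 (median -0.11). Nnmt, which uses the methyl donor made from methionine, also had separate groups but was lower, at 5.44 ± 1.02 and 2.92 ± 0.385 CPM (SD, n = 3 each; log2 fold change -0.90, edgeR adjusted p = 0.329). Mat2a, which makes that donor, had a log2 fold change of 0.73 with overlapping groups (edgeR adjusted p = 0.363).

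**Figure D5:**
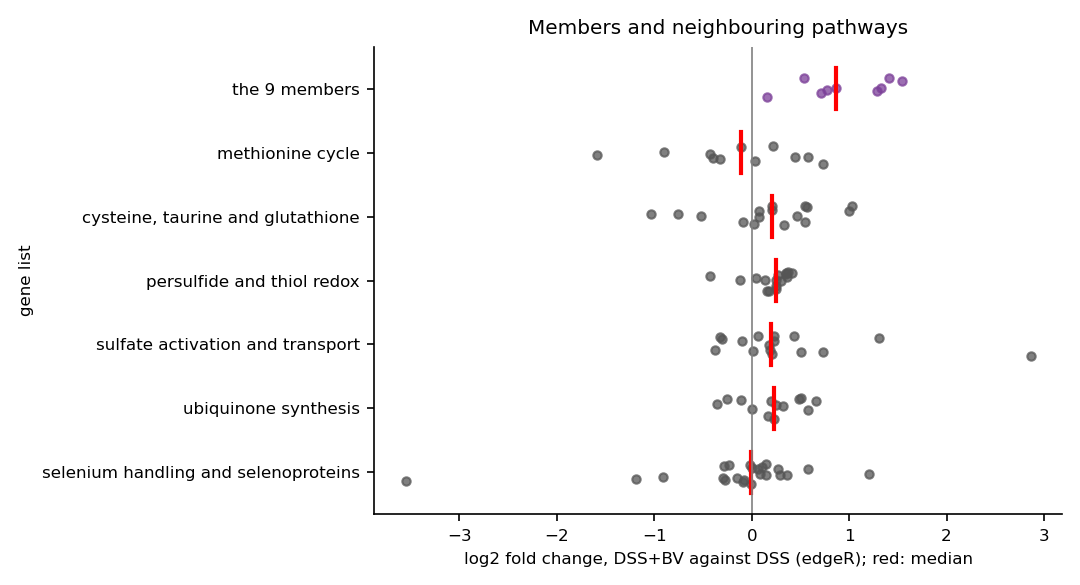
Log2 fold change of the DSS+BV group against the DSS group (horizontal axis) for the 9 members (purple) and for the tested genes of the 6 neighbouring lists (grey), 1 point per gene, with the median of each list in red. The members' median is 0.87, and those of the lists lie between -0.11 and 0.25.

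The genes most like Selenbp1 over the 6 libraries were ranked by the Pearson correlation of log2 CPM among 10417 genes with a mean of at least 10 CPM. They were Cog1 (0.99), Xiap (0.99), BC005537 (0.99), Mrps36 (0.99) and Sec63 (0.99). Each had no overlap between the groups and the same order of libraries as Selenbp1, which is close to what the choice by correlation selects for. This order was found in 35 of the 10417 genes. Their differences were smaller than that of Selenbp1, with log2 fold changes from 0.18 for Sec63 to 0.63 for Mrps36. The genes most like Sqor were Dnaja2 (0.98), Cwc15 (0.97), Slc2a4 (0.95), Vps37b (0.94) and Ppp2r2d (0.94), all with overlapping groups.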

How the data were processed

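RNA from the colon of 3 mice per group was sequenced, 1 library per mouse. The authors quantified expression with RSEM, and the deposited values are expected counts per gene, not scaled between libraries. The submitters' processing notes name HISAT2 2.1.0, Bowtie2 2.2.5, RSEM 1.2.8 and GRCm38.p6. Replicates came from separate mice and differed by more than sampling noise (their chi-square over genes, divided by its degrees of freedom, ran from 42.7 to 118).

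Groups came from the treatment named in the labels of each library. After rounding of the expected counts, filterByExpr (minimum count 10, minimum total 15) left 14579 genes, TMM factors were computed, and edgeR 4.0.16 (R 4.3.3) gave quasi-likelihood p-values, adjusted by Benjamini-Hochberg over these genes. Standard errors are the log2 fold change divided by the root of the F statistic. A gene was called at an adjusted p under 0.05 with a log2 fold change above 1 or below -1. The study used DESeq2, tried here as an alternative (version 1.42.0). With 3 mice per group, an exact two-sided permutation test of 1 gene cannot go below 0.1. Correlations used log2 CPM with a prior count of 2.

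The members, the gene lists and the tests were chosen with earlier results of these data known. Named genes are all members, the 2 genes of each pathway list with the smallest edgeR p-values, any called gene of these lists, and the 5 genes most correlated with Selenbp1 and with Sqor. Transcript lengths and coordinates came from GENCODE M21 (GRCm38), with 1 principal coding transcript per gene, and upstream windows from RefSeq. Sequences were aligned with Biopython 1.88. Alternatives were DESeq2, RLE and upper-quartile factors, no filter and a stricter filter, unrounded counts, the pair summed, a robust fit, the replicate number as a block, and each library left out. The comparisons with marker sums, the ratio of Selenbp1 to Sqor and the overlap with a library left out were added after seeing the data. The tests were first run on simulated data. The kit is not stated to keep the strand.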

Additional observations from a re-analysis of the deposited data

How the results depend on the processing

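All 9 members kept a log2 fold change above 0 in every alternative fit. Relative to the epithelial markers the mean of Sqor was lower in the DSS+BV group, and relative to the surface colonocyte markers those of Sqor, Ethe1, Tst and Suox were, the cause of which was not tested. Of the recomputed log2 fold changes, 132 stayed on the same side of the call threshold and 2, Selenbp1 (1.35) and Selenbp2 (1.43), passed it with DESeq2. DESeq2 called 280 genes lower (1.73%) and 45 higher (0.279%) over all genes, 2 members higher and 2 pathway genes lower, against 13, 0, 0 and 0 with edgeR. With the replicate number as a block, 0 genes were called lower, and the log2 fold change of Cbs was 2.39 against 1.29. Deviations of same-numbered libraries from their group means correlated at 0.267, 0.255 and -0.296. With 3 libraries per group these values cannot show whether the numbers pair the mice. With 1 library left out, edgeR called between 0 and 3 genes lower and between 0 and 4 higher, the 4 without DSS+BV 1, and the number of members with separate groups was between 2 and 8, at 7 without DSS 2 and 8 without DSS+BV 1. As a percent of the surface colonocyte markers, 0 members had separate groups. With RLE or upper-quartile factors, no filter, unrounded counts, a robust fit or the pair summed, the 13 called genes were the same, and the stricter filter kept 11 of them. Spearman in place of Pearson gave a median correlation of 1 for the 5 genes most like Selenbp1 and 0.94 for those most like Sqor. With 3 mice per group and a biological coefficient of variation of 32.1%, edgeR called 0 of the 14579 tested genes higher and 13 lower. Selenbp1, with separate groups and a log2 fold change of 1.33, was not called. It was chosen on this comparison, so it does not show what the test misses. With 3 mice per group, the lack of an edgeR call does not show the lack of a difference, for variable members such as Cbs or for others.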

Other observations

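Selenium handling genes and selenoproteins, a list that does not hold Selenbp1, were the only list of the 6 with calls in DESeq2. It held 2 genes called lower, where 1.73% of all genes were. Of 23 tested genes 11 had a log2 fold change above 0, with a median of -0.01. Dio2, the deiodinase that activates thyroid hormone, held 4.79, 27.5 and 7.92 CPM in the DSS mice against 1.05, 1.15 and 1.201 CPM in the DSS+BV mice. Its log2 fold change was -3.55 (standard error 0.71), with an adjusted p of 0.191 in edgeR's quasi-likelihood test and 2.41e-05 in DESeq2. Selenon, a selenoprotein of the endoplasmic reticulum, was at 27.4 ± 5.24 and 14.5 ± 1.27 CPM (SD, n = 3 each). Its log2 fold change of -0.92 was short of the threshold for a call (adjusted p = 0.218 with edgeR and 0.00874 with DESeq2). Gpx3, the secreted glutathione peroxidase, named after its values were seen because DESeq2 called it, held 261, 195 and 409 CPM against 118, 113 and 149 CPM, a log2 fold change of -1.19 (adjusted p = 0.263 with edgeR and 0.0152 with DESeq2). For all 3, every DSS+BV library was below every DSS library, as for 11.3% of all tested genes.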
